A study of Mus musculus with 2 samples.

Results

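Several steps of glycolysis are carried out by alternative enzymes encoded by separate genes, and 5 such pairs are described here in single-cell RNA sequencing of mouse muscle stem cells. The pairs were enolase (Eno3, the muscle form, and Eno1, the general form), phosphoglycerate mutase (Pgam2, muscle, and Pgam1, general), lactate dehydrogenase (Ldhb, the heart subunit, and Ldha, the subunit abundant in fast muscle), hexokinase (Hk2, the insulin-responsive form of muscle and fat, and Hk1, general) and phosphofructokinase (Pfkm, muscle, and Pfkp, the platelet form). The genes were chosen by symbol, and the 10 of them were 10 of the 32285 features in the files, each with at least 1 unique molecular identifier (UMI, 1 counted transcript) in both libraries.

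One library (QSC) held quiescent satellite cells sorted from uninjured muscle, and the other (ASC) held activated satellite cells sorted 1.5 days after injury with cardiotoxin, a venom peptide that kills fibres. All mice were 8 weeks old and carried the same alleles, Pax7 CreERT2/+ ;Rosa26 mTmG/+, so that Cre made from the Pax7 gene, which is active in satellite cells, switched their membrane reporter from red to green. The labels give the tibialis anterior (TA) muscle, while the text on extraction speaks of hind limb muscle. Each library pooled several mice, so there was 1 library per group and no replicate. Differences between the libraries therefore have no test, injury and library cannot be told apart, and every interval below is an exact 95% interval that covers counting error only.

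Glycolysis breaks glucose down to pyruvate, and lactate dehydrogenase then exchanges pyruvate and lactate. During muscle differentiation, genes for muscle forms such as Eno3 and Pgam2 are switched on beside those of the contractile apparatus, while Eno1 and Pgam1 are used by most other cells. In adult muscle, fast fibres rely on glycolysis and are rich in Ldha, whereas slow and oxidative fibres and the heart make more Ldhb.

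Barcodes with at least 500 genes and at most 10% mitochondrial UMIs were kept, which left 516 of 766 QSC barcodes with 1162091 UMIs and 1468 of 1650 ASC barcodes with 8895815 UMIs. The median kept barcode held 2155 UMIs in QSC and 3502 in ASC. At these depths 3 UMIs, the floor taken here for a count of 0, equal 2.58 UMIs per 1000000 counted (CPM) in QSC and 0.337 in ASC. Of 4 barcodes found in both libraries, 2 were kept in QSC and 3 in ASC. No doublet caller was run. The study's methods describe a filter at 1% mitochondrial UMIs, which would leave 1 of the 379 QSC barcodes described next as contractile-low.

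The barcodes were divided by the share of their UMIs that came from lists of marker genes holding no glycolytic gene. Barcodes with at least 5% of UMIs from 10 contractile genes were called fibre-rich, and numbered 104 in QSC and 943 in ASC. They were followed by immune barcodes (16 and 87) and stromal or endothelial barcodes (17 and 2), each with at least 1% of UMIs from that list. The rest, 379 in QSC and 436 in ASC, were called contractile-low muscle barcodes. These classes are ranges of a score and not cell types, and 1 QSC and 31 ASC barcodes lay between 4 and 6% contractile UMIs.

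The label of muscle stem cells was set beside 7 genes listed for satellite cells. Pax7, Myf5, Cdh15, Chodl, Myod1 and Myog were lower in fibre-rich than in contractile-low barcodes of both libraries. Des was higher in fibre-rich barcodes, at 2564 against 955 CPM in QSC and 4571 against 1258 CPM in ASC. The summed list stood at 2639 in fibre-rich against 3600 CPM in contractile-low QSC barcodes, and at 4894 against 2996 CPM in ASC. Pax7, the transcription factor that defines satellite cells, stood at 212 CPM in contractile-low QSC barcodes and 9.32 CPM in fibre-rich ones. In ASC, contractile-low barcodes held 28.6 CPM of Pax7 and 939 CPM of Myog, which drives muscle differentiation, against 33.7 CPM of Myog in QSC. Fibre-rich ASC barcodes held 1.99 CPM of Pax7, 164 CPM of Myod1 and 133 CPM of Myog. Fibre-rich barcodes were also poor in mitochondrial UMIs, with a median of 0.719% in QSC and 0.175% in ASC against 4.86 and 2.27% in contractile-low ones. Whether they were fibre pieces, cells that took up fibre RNA or free RNA was not tested.

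The start regions of the enolase and phosphoglycerate mutase genes are shown because these pairs have the most UMIs among those whose balance differed between the classes. The 250 bases before the RefSeq start nearest to the main annotated start of each gene (build GRCm38.p6) are printed 5′ to 3′ in the direction of transcription, with capitals marking matches to the motifs searched. Eno3 lies on chr11:70657202-70662513 (plus strand) and Eno1 on chr4:150236721-150248879 (plus strand). Pgam2 lies on chr11:5801640-5803733 (minus strand) and Pgam1 on chr19:41911923-41918660 (plus strand).
Eno3, chr11:70656926-70657175, plus strand: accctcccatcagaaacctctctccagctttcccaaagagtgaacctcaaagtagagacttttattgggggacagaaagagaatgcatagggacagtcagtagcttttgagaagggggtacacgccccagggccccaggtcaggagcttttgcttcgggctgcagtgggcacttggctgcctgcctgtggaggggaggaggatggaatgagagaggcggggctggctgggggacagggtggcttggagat
Eno1, chr4:150236458-150236707, plus strand: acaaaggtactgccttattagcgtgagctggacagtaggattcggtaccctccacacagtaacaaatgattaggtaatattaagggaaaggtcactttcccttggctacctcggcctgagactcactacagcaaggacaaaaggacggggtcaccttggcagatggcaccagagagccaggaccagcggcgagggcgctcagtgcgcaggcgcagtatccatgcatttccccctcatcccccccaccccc
Pgam2, chr11:5803797-5804046, minus strand: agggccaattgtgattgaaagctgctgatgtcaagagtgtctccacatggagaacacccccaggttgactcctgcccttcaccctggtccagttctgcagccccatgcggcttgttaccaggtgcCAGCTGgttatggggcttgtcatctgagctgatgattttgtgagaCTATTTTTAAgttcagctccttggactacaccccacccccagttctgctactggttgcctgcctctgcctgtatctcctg
Pgam1, chr19:41911621-41911870, plus strand: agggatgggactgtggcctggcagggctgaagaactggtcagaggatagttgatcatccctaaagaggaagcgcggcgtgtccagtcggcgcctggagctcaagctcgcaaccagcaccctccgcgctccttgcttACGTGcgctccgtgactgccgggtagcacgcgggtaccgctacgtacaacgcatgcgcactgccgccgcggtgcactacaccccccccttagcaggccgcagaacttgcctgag

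The motifs searched on both strands were CAGCTG (an E-box that myogenic factors can bind), ACGTG (the core of the hypoxia response element), TATAAA, the MEF2 consensus and the CArG box. The Pgam2 window held CAGCTG from 125 to 120 bases before the start, and a MEF2 consensus from 80 to 71 bases before it. The Pgam1 window held ACGTG from 114 to 110 bases before its start. None of the 5 motifs occurred in the Eno3 and Eno1 windows. Among 32851 windows of the same length, 13.0% held CAGCTG, 16.6% ACGTG, 12.4% TATAAA, 2.92% the MEF2 consensus and 1.47% the CArG box, so these matches are descriptions of the printed letters and say nothing of use.

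The members of a pair are similar enough to ask whether reads could be assigned to the wrong one. In the coding sequence the partners were 77.0% identical for Eno3 and Eno1, 75.7% for Pgam2 and Pgam1, 72.2% for Ldhb and Ldha, 72.3% for Hk2 and Hk1 and 69.5% for Pfkm and Pfkp. No stretch of 90 bases in the last 500 bases of any transcript, where this 3′ method reads, was shared between partners. Eno1 shared 53.3% of such stretches with other genes, among them its near copy Eno1b, which is also counted here, so the Eno1 counts may be understated. Ldhb shared 14.1% with a pseudogene that is not among the counted features. Whether this affected the Ldhb counts was not tested.

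**Figure D1:**
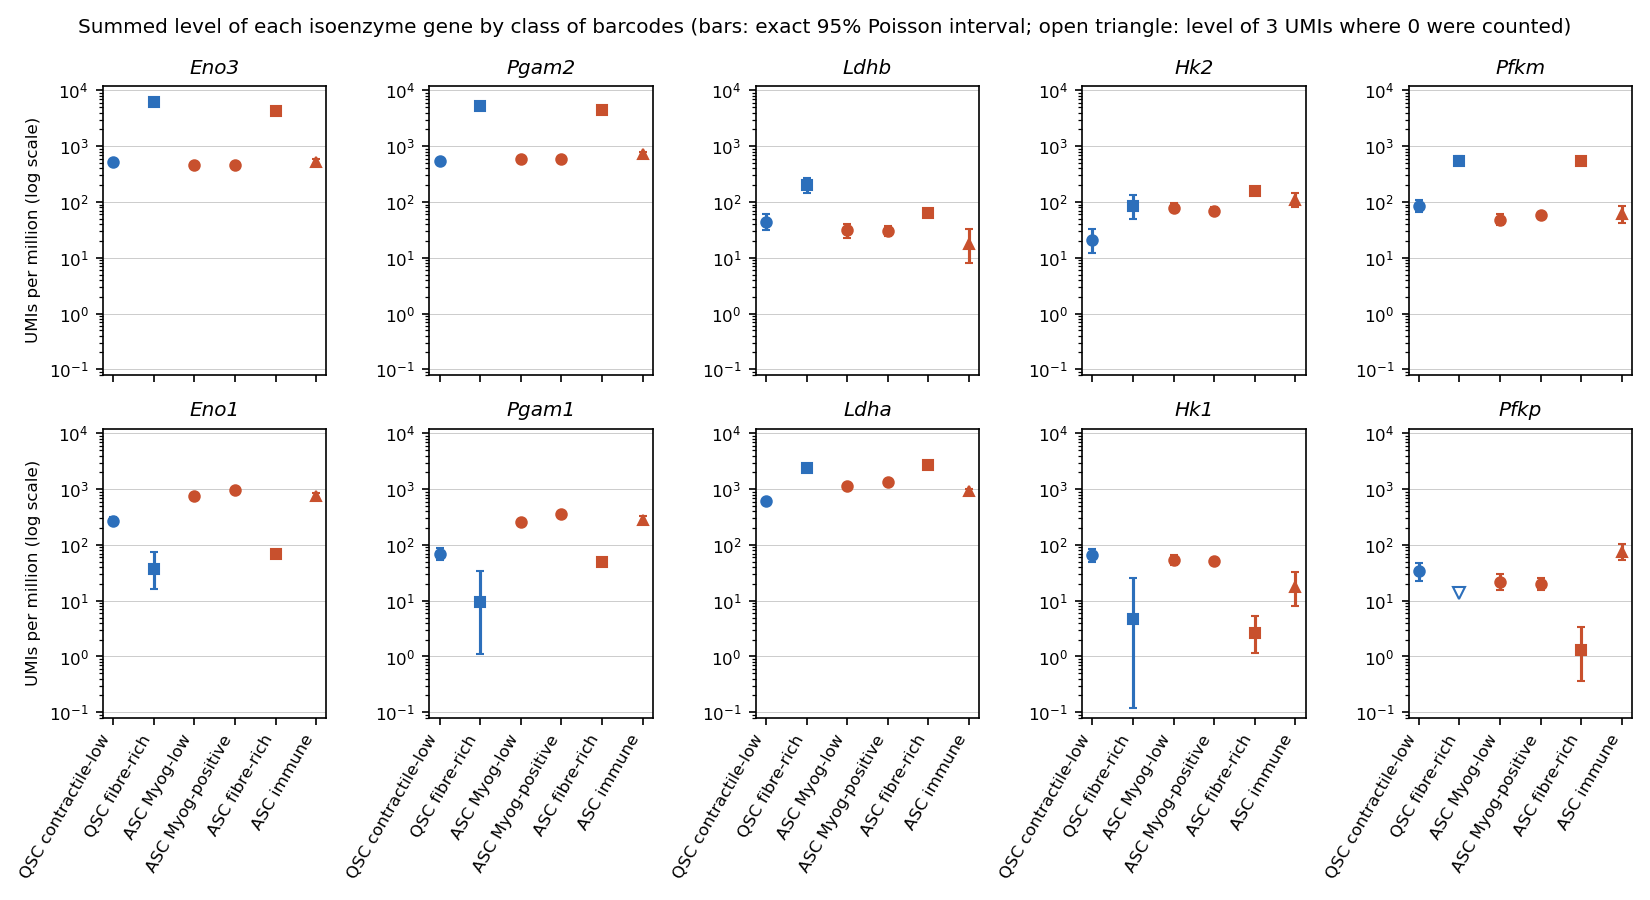
Level of the 10 isoenzyme genes in UMIs per 1000000 (CPM, log axis) in 6 classes of barcodes, the QSC contractile-low and fibre-rich ones (blue) and the ASC Myog-low, Myog-positive, fibre-rich and immune ones (red), where Myog-low and Myog-positive divide the ASC contractile-low barcodes. Bars are exact 95% Poisson intervals for counting error only, and the open triangle is the level of 3 UMIs, the floor taken for a count of 0. Eno3, Pgam2 and Pfkm are high in fibre-rich barcodes and Eno1, Pgam1 and Hk1 are low there.

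Fibre-rich barcodes were dominated by the muscle forms of enolase and phosphoglycerate mutase, and contractile-low barcodes held both forms of each. In QSC, Eno3 stood at 523 CPM (476 to 574) in contractile-low and 6140.3 CPM (5813 to 6481) in fibre-rich barcodes. In ASC it stood at 459 CPM (441 to 478) and 4285 CPM (4212 to 4360). Eno3 was therefore 3.55 higher on the log2 scale in fibre-rich QSC barcodes (3.40 to 3.71) and 3.22 higher in ASC (3.16 to 3.28), and the intervals of the classes did not overlap in either library.

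Eno1 had the opposite order. It stood at 274 CPM (240.1 to 311) in contractile-low and 37.3 CPM (16.1 to 73.5) in fibre-rich QSC barcodes. In ASC it stood at 902 CPM (877 to 928) and 67.5 CPM (58.6 to 77.5). The difference of fibre-rich from contractile-low barcodes was -2.88 in log2 (-4.11 to -1.87) in QSC and -3.74 (-3.95 to -3.54) in ASC.

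The share of Eno3 in the enolase pair needs no scaling to depth. It was 65.6% (62.0 to 69.2) in contractile-low and 99.4% in fibre-rich QSC barcodes. In ASC it was 33.7% (32.6 to 34.8) and 98.4%. The log2 odds ratio of fibre-rich over contractile-low barcodes was 6.43 in QSC and 6.96 in ASC, the widest gap of the pairs after phosphofructokinase. The share over a whole library, 87.6% in QSC and 74.3% in ASC, mixed the classes. Its lower value in ASC stood beside the lower contractile-low share, while the fibre-rich shares differed little. Fibre-rich barcodes, 943 of the 1468 kept in ASC, held 72.7% of the Eno3 UMIs of QSC and 82.5% of those of ASC. They held only 3.11 and 3.76% of the Eno1 UMIs.

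Phosphoglycerate mutase, which moves the phosphate group one step before enolase acts, had the same layout. Pgam2 stood at 539 CPM in contractile-low and 5348 CPM in fibre-rich QSC barcodes, and at 575 and 4466 CPM in ASC. Pgam1 stood at 69.6 CPM (53.1 to 89.6) and 9.32 CPM, the latter from 2 UMIs, in QSC. In ASC it stood at 324 CPM (309 to 340.1) and 50.3 CPM (42.6 to 59.0). The Pgam2 share was 88.5% in contractile-low and 99.8% in fibre-rich QSC barcodes, and 63.9 and 98.9% in ASC, so the muscle form was the larger part of the pair in both classes of both libraries, while Eno3 was the smaller part in contractile-low ASC barcodes.

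**Figure D2:**
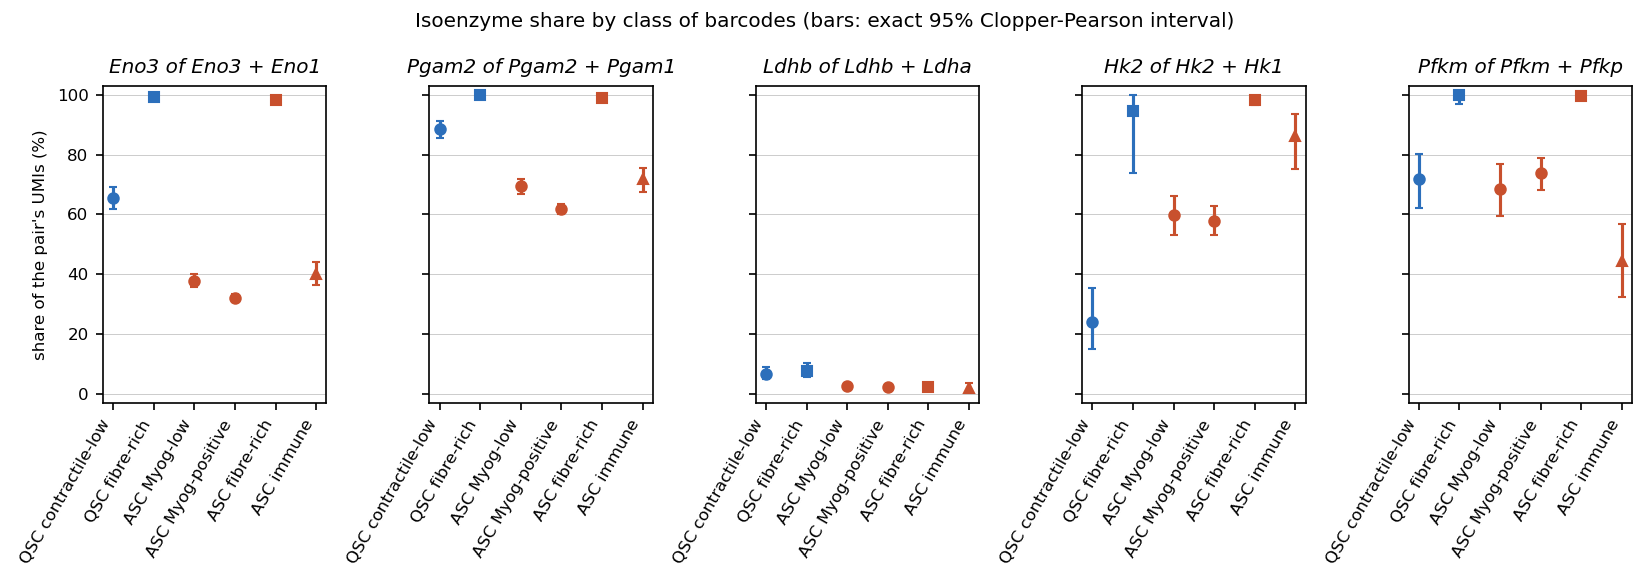
Share of the first-named gene in each isoenzyme pair (percent of the UMIs of the pair) in the QSC contractile-low and fibre-rich (blue) and the ASC Myog-low, Myog-positive, fibre-rich and immune barcodes (red), with exact 95% Clopper-Pearson intervals that cover counting error only. The Eno3 share is 37.9% in Myog-low, 32.0% in Myog-positive and 98.4% in fibre-rich ASC barcodes, while the Ldhb share is below 10% in each class shown.

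Phosphofructokinase, which commits glucose to glycolysis, was measured at lower counts. Pfkm stood at 85.9 CPM (74 UMIs) in contractile-low and 550.2 CPM (118 UMIs) in fibre-rich QSC barcodes, and at 54.4 CPM (291 UMIs) and 553 CPM (1672 UMIs) in ASC. Pfkp had 29 and 0 UMIs in QSC. Taking 3 UMIs over the class as the floor and the 29 UMIs without counting error, its fibre-rich level was at least 2.41-fold lower. The exact interval of the 0 UMIs reaches 17.2 CPM, above that floor, so the bound is smaller with counting error. In ASC it had 108 and 4 UMIs, 20.2 against 1.32 CPM. The Pfkm share was 71.8% in contractile-low and 100% in fibre-rich QSC barcodes, and 72.9 and 99.8% in ASC.

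The hexokinases, which phosphorylate glucose on entry, split in the same direction. Hk1 had 57 UMIs in contractile-low and 1 UMI in fibre-rich QSC barcodes, and 280 and 8 UMIs in ASC, where the levels were 52.4 and 2.65 CPM. Hk2 had 18 UMIs in each class of QSC, which is 20.9 and 83.9 CPM, and 391 and 472 UMIs in ASC, which is 73.1 and 156 CPM. The Hk2 share was 24% in contractile-low and 94.7% in fibre-rich QSC barcodes, and 58.3 and 98.3% in ASC.

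Lactate dehydrogenase was the pair whose balance did not follow the contractile share. Ldha stood at 614 CPM (563 to 669) in contractile-low and 2419.7 CPM (2216 to 2637) in fibre-rich QSC barcodes, and at 1267 CPM (1237 to 1298) and 2692 CPM (2634 to 2752) in ASC. Ldhb was also higher in fibre-rich barcodes, at 44.1 against 200.5 CPM in QSC and 32.2 against 62.6 CPM in ASC. The Ldhb share was 6.70 and 7.65% in QSC and 2.48 and 2.27% in ASC. The log2 odds ratio of fibre-rich over contractile-low barcodes was 0.21 (-0.48 to 0.90) in QSC and -0.13 (-0.44 to 0.18) in ASC, intervals that span 0 and leave room for differences of under 2-fold either way.

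Counted by a 2-fold difference among genes with at least 20 UMIs over both classes, 6 of the 10 members were higher in fibre-rich than in contractile-low QSC barcodes and 4 were lower, where 18.8% of 5391 genes were higher and 51.1% lower. The 4 that were lower were Eno1, Pgam1, Hk1 and Pfkp, and the other members were higher. In QSC the fibre-rich counts of these 4 were 8, 2, 1 and 0 UMIs. They passed the filter only through the class where they were high, which favours a count as lower, so no support is drawn from it. In ASC 5 were higher, where 15.3% of 10307 genes were, and the same 4 genes were lower, where 45.4% were. Of these, Hk1 and Pfkp also had under 20 fibre-rich UMIs in ASC, with 8 and 4. Ldhb, at a log2 difference of 0.96 in ASC, was past the threshold in QSC alone. The median gene lay at -1.10 in QSC and -0.77 in ASC, so relative to it Eno1 was -1.78 and -2.97 and Eno3 4.65 and 3.99. A share of members that were lower near 4 of 10 is not above the background.

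Much of the muscle-form signal of contractile-low barcodes stood in the same proportion to contractile transcripts as in the fibre-rich ones. Eno3 had 33.3 UMIs per 1000 contractile UMIs in contractile-low and 34.2 in fibre-rich QSC barcodes, a log2 difference of -0.04 (-0.20 to 0.12). In ASC it had 25.5 and 29.6, and in the ASC immune barcodes, which hold leukocyte markers, 22.5. Pgam2 had 34.2 and 29.8 per 1000 in QSC, 31.9 and 30.9 in ASC and 31.4 in the immune barcodes, so the muscle mutase was met in immune barcodes at the ratio of the fibre-rich ones.

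If contractile UMIs in each class carried members at the fibre-rich ratio of the same library, they would account for 103% of the Eno3 UMIs of contractile-low QSC barcodes and 116% of those of ASC. The same figure was 87.0 and 96.7% for Pgam2, and 56.1 and 127% for Pfkm. By contrast it was 1.19 and 0.933% for Eno1 and 1.17 and 1.93% for Pgam1. It was 34.5 and 26.5% for Ldha and 35.2 and 26.6% for Hk2. The Eno3 level of contractile-low QSC barcodes cannot be told apart from that of RNA that comes with contractile transcripts. In ASC the Eno3 count lay below the fibre-rich ratio. For Pgam2 that ratio left a remainder, larger in QSC than in ASC, and whether it had another source was not tested. Eno1 exceeded the fibre-rich ratio 83.8-fold in QSC and 107-fold in ASC. The fibre-rich ratio rested on 8 Eno1 UMIs in QSC and 204 in ASC, so the QSC fold is imprecise.

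**Figure D3:**
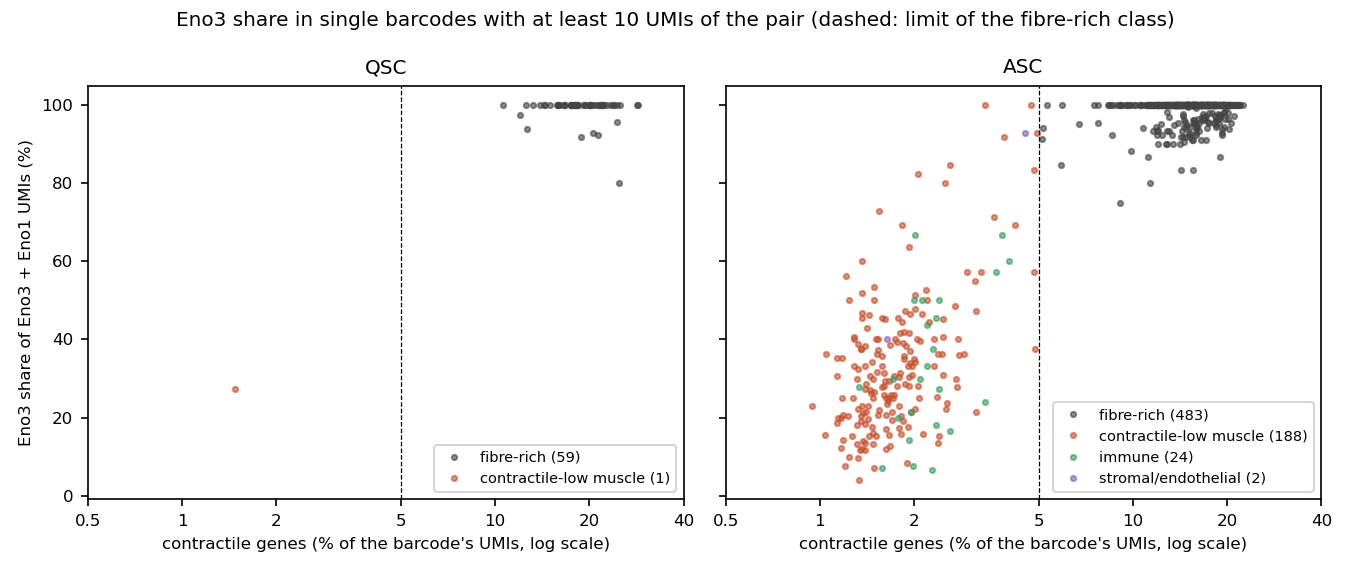
Eno3 share of the enolase pair (percent) against the percent of UMIs from 10 contractile genes (log axis) in QSC (left) and ASC (right), 1 point for each barcode with at least 10 enolase UMIs, coloured by class, with a dashed line at the 5% limit of the fibre-rich class. ASC contractile-low barcodes spread from 4 to 100% with a median of 30.8%, and fibre-rich ones lie between 75 and 100%.

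Single barcodes gave the same order. With at least 10 enolase UMIs, the median Eno3 share was 100% over 59 fibre-rich QSC barcodes (80 to 100) and over 483 fibre-rich ASC barcodes (75 to 100). Over 188 contractile-low ASC barcodes it was 30.8% (4 to 100), and over 24 ASC immune barcodes 30% (6.67 to 66.7). The depth of contractile-low QSC barcodes left 1 with that many enolase UMIs, at 27.3%. Both enolase genes had at least 1 UMI in 322 of the 436 contractile-low ASC barcodes, so both forms were met in the same droplets.

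Across bins of contractile content, the ASC Eno3 share was 27.0% below 1.5% contractile UMIs, 34.0% in the next bin and 53.2% between 2.5 and 5%. It was 94.8% between 5 and 10%, 98.2 and 98.9% in the bins that followed and 99.2% in the highest. The largest step lay at the boundary that defines the classes, and a smaller climb lay on either side of it.

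The share of barcodes with a UMI was compared after thinning each barcode to 1200 UMIs. This left out 8 contractile-low QSC, 6 contractile-low ASC, 4 ASC immune, 14 fibre-rich QSC and 87 fibre-rich ASC barcodes. Eno1 was then detected in 25.6% of contractile-low QSC barcodes and 45.6% of those of ASC, and in 67.5% of the immune barcodes. Eno3 was detected in 45.6 and 43.0% of contractile-low barcodes. Immune barcodes, which should lack it, showed it in 36.1%, below both contractile-low values. When thinned to 2000 UMIs they showed it in 68.1% against 65.3 and 57.7%, so that order turned, and Eno3 in contractile-low barcodes cannot be told apart from its level in immune ones. Unthinned, at median depths of 2219, 7923.5 and 6079 UMIs, Eno1 was met in 42.5, 81.0 and 93.1% and Eno3 in 67.8, 89.4 and 92.0%. In fibre-rich barcodes thinned Eno3 was met in 100 and 97.2% and Eno1 in 4.44 and 7.36%.

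The comparison of ASC with QSC asks how the pairs differ between activated and quiescent satellite cells. Among contractile-low barcodes the general forms Eno1 and Pgam1 were higher in ASC, while their muscle partners were near the same level. The contractile-low ASC barcodes also held 1662 CPM of the 4 globin genes against 130.0 CPM in QSC, whose part in the results was not tested. The log2 difference of ASC from QSC was 1.72 (1.53 to 1.91) for Eno1 and -0.19 (-0.33 to -0.04) for Eno3. It was 2.22 (1.85 to 2.62) for Pgam1 and 0.10 (-0.05 to 0.24) for Pgam2.

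Ldha was 1.05 higher on the log2 scale (0.92 to 1.18) and Hk2 1.81 higher (1.13 to 2.58), while Ldhb stood at -0.46 (-0.97 to 0.09) and Hk1 at -0.34 (-0.75 to 0.10). Pfkm, at -0.66 (-1.03 to -0.27), and Pfkp, at -0.74 (-1.34 to -0.09), were both lower in ASC by less than 2-fold. At 2-fold, 4 of the 10 members were higher (Eno1, Pgam1, Ldha and Hk2), where 19.5% of 10082 genes were, and 0 were lower, where 22.7% were. The Eno3 share differed by a log2 odds ratio of -1.91, the Pgam2 share by -2.12, the Ldhb share by -1.50, the Hk2 share by 2.14 and the Pfkm share by 0.08 (-0.67 to 0.80).

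These differences stood beside a large gap in depth. Contractile-low barcodes held a median of 2219 UMIs in QSC and 7923.5 in ASC, and within ASC the level of Eno1 went with depth. It was 268 CPM in 116 barcodes of 2000 to 5000 UMIs, 439 CPM in 109 of 5000 to 10000, 789 CPM in 90 of 10000 to 20000 and 1172 CPM in 96 above that. Pgam1 stood at 120.0, 135, 223 and 450.01 CPM and Ldha at 748, 942, 1269 and 1431 CPM in the same bins. The 25 ASC barcodes below 2000 UMIs stood apart from that order, with 509.7 CPM of Eno1 (307 to 796, from 19 UMIs) against 183 CPM (131 to 248) in the 137 QSC barcodes of that depth, and these intervals do not overlap. Those 25 ASC barcodes held 2.96% contractile UMIs and a median of 0.369% mitochondrial UMIs, against 1.74 and 4.93% in QSC. They also held immune genes at 1797 CPM against 174 CPM in QSC, with 10 of 13 of that list met, and 0 UMIs of Pax7 against 29, and the part of immune cells was not tested. In the deeper bins Pax7 ran from 94.1 CPM down to 10.8 CPM, so depth and cell state cannot be told apart here.

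**Figure D4:**
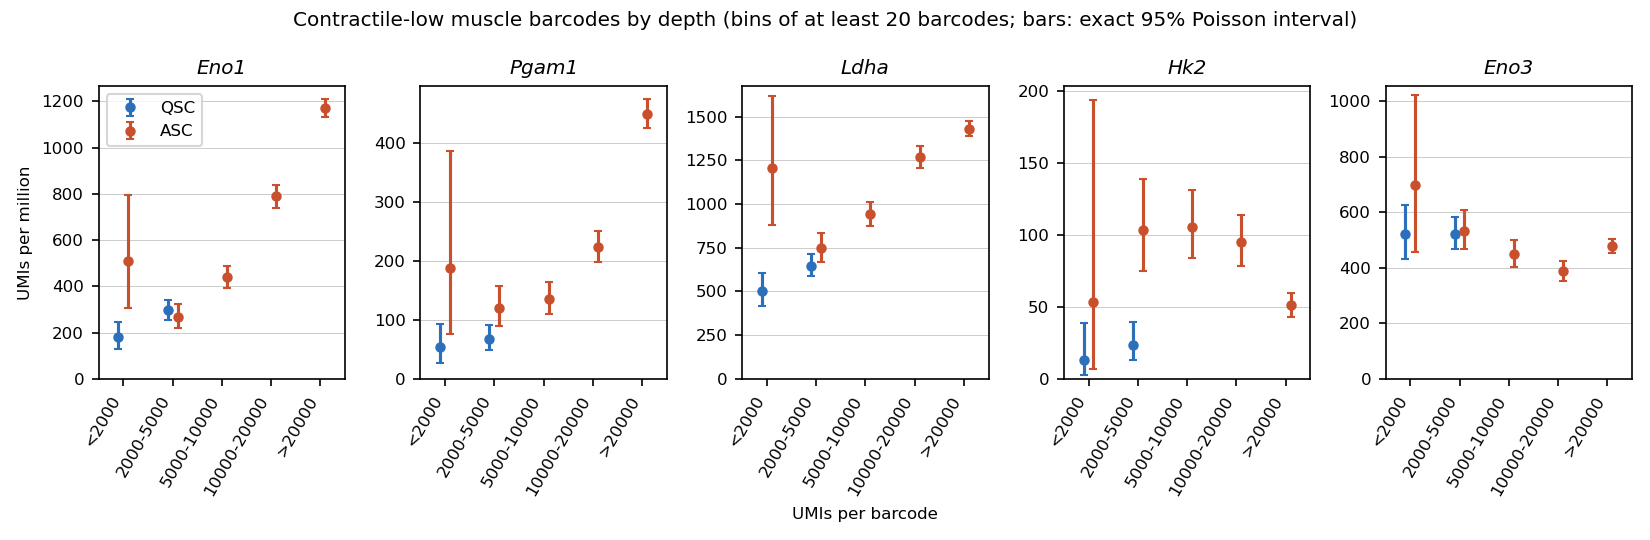
Level in UMIs per 1000000 (CPM, linear axis from 0) of Eno1, Pgam1, Ldha, Hk2 and Eno3 in contractile-low barcodes by their UMI count, for QSC (blue) and ASC (red) in bins of at least 20 barcodes, with exact 95% Poisson intervals that cover counting error only. ASC Eno1 goes from 268 CPM at 2000 to 5000 UMIs to 1172 CPM above 20000 UMIs, and at 2000 to 5000 UMIs the QSC value is 296 CPM.

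Between barcodes of 2000 to 5000 UMIs, a comparison chosen after seeing the data, 241 QSC and 116 ASC barcodes remained. Their median depths still differed, at 2499 and 3718.5 UMIs. Eno1 was then 296 CPM in QSC and 268 CPM in ASC, a log2 difference of -0.14 (-0.49 to 0.20), and its difference over all depths was not seen. Ldha was 647 and 748 CPM, a difference of 0.21 (-0.01 to 0.42). Pgam1 was 68.0 and 120.0 CPM, a difference of 0.82 (0.20 to 1.44), so it remained higher in ASC at a smaller size.

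Hk2 remained higher in ASC at that depth. It was 23.7 CPM (15 UMIs) in QSC and 104 CPM (44 UMIs) in ASC at 2000 to 5000 UMIs, a log2 difference of 2.13 (1.25 to 3.08). Within ASC it did not go up with depth, and stood at 51.0 CPM above 20000 UMIs. Hk2 was also met in ASC immune barcodes, in 14.5% when thinned to 1200 UMIs, against 6.98% of contractile-low ASC barcodes. Contractile UMIs were 1.51% in QSC and 2.09% in ASC at 2000 to 5000 UMIs. Whether the ASC Hk2 level was that of satellite cells themselves was not tested. The Hk2 share of the hexokinase pair was 23.8 and 58.7% at 2000 to 5000 UMIs. The Eno3 share was 63.9 and 66.6% and the Pgam2 share 88.5 and 84.8%, so neither share differed by more than its interval at this depth. Below 2000 UMIs the Eno3 share was 74.1% (66.5 to 80.7) in 137 QSC and 57.8% (42.2 to 72.3) in 25 ASC barcodes, which overlap. In ASC the Eno3 share was 50.7% at 5000 to 10000 UMIs, 32.9% at 10000 to 20000 and 29.0% above, where QSC had 1 contractile-low barcode over 5000 UMIs to set beside them.

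Contractile-low ASC barcodes with at least 2000 UMIs were divided by Myog, which is made by muscle cells committed to differentiate. Outside a small cell cycle group described below, those with any Myog UMI were called Myog-positive and the rest Myog-low. ASC immune barcodes held 54.7 CPM of Myog and fibre-rich ones 133 CPM, so a Myog UMI alone does not show commitment. Deeper barcodes are also more likely to hold one. Eno1 stood at 739.8 CPM in 194 Myog-low and 982 CPM in 207 Myog-positive barcodes, a log2 difference of 0.41 (0.31 to 0.50), and Pgam1 at 257 and 355 CPM, a difference of 0.47 (0.31 to 0.63). Eno3 was 451 and 463 CPM, a difference of 0.04 (-0.09 to 0.16), and Pgam2 584 and 579 CPM. Thus no member passed 2-fold between these classes, whose median depths were 5547 and 12984 UMIs. The classes also differed in the 4 globin genes of red blood cells, at 5138 CPM in Myog-low and 65.5 CPM in Myog-positive barcodes, and the part of depth and of these cells in the differences was not tested.

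Only 10 barcodes passed the threshold for cell cycle genes, at least 0.5% of UMIs from a list of 20, and held 74 Eno3 and 173 Eno1 UMIs. ASC immune barcodes held Eno1 at 768 CPM and Pgam1 at 283 CPM, between the levels of Myog-low and Myog-positive barcodes for both genes. They differed from contractile-low muscle in Pfkp, at 76.2 against 20.2 CPM, and in Hk1, at 17.6 against 52.4 CPM, and their Pfkm share was 44.3%. The Hk2 share also differed, at 86.2% in immune against 58.3% in contractile-low ASC barcodes, a log2 odds ratio of 2.16 (1.10 to 3.38).

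Between the fibre-rich barcodes of the libraries the muscle forms differed little. The log2 difference of ASC from QSC was -0.52 (-0.60 to -0.44) for Eno3, -0.26 (-0.35 to -0.17) for Pgam2 and 0.01 (-0.26 to 0.29) for Pfkm. Ldha differed by 0.15 (0.03 to 0.28) and Hk2 by 0.90 (0.22 to 1.66), while Eno1, from 8 UMIs in QSC, differed by 0.86 (-0.15 to 2.09). Ldhb differed by -1.68 (-2.16 to -1.17). Of 8 members with at least 20 UMIs, 1 was at least 2-fold higher (Pgam1, from 2 QSC UMIs), where 27.0% of 6373 genes were, and 1 was lower (Ldhb), where 9.30% were.

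Over all kept barcodes the log2 difference of ASC from QSC was 1.46 for Eno1, 2.01 for Pgam1 and 1.22 for Hk2, and these 3 of 10 members were past 2-fold, where 17.4% of 11189 genes were higher. Of the members 0 were lower by 2-fold, where 23.0% of genes were. Ldha differed by 0.90, Pgam2 by 0.42, Pfkm by 0.40 and Eno3 by 0.18, and Hk1 by -0.69, Ldhb by -0.78 and Pfkp by -0.87. At the study's limit of 1% mitochondrial UMIs, which removes nearly all contractile-low QSC barcodes, Eno3 stood at -0.80, Pgam2 at -0.48, Ldha at -0.06 and Pfkm at -0.19, the opposite direction. These whole-library values mix the classes in different proportions.

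The Ldhb share of fibre-rich barcodes went with the myosin heavy chain gene they held most. Fibre types are defined by these genes, from slow (Myh7) through oxidative fast (Myh2) to glycolytic fast (Myh1, then Myh4), and the grouping was chosen after seeing the data. In QSC, 6 barcodes led by Myh2 held 17 Ldhb and 20 Ldha UMIs, a share of 45.9% (29.5 to 63.1). The 48 led by Myh1 held 21 and 230, a share of 8.37% (5.25 to 12.5), and the 27 led by Myh4 held 2 and 169, a share of 1.17% (0.142 to 4.16).

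The ASC library, with more barcodes, had the same order. The 3 barcodes led by Myh7 held 11 Ldhb and 14 Ldha UMIs, a share of 44% (24.4 to 65.1), and the 21 led by Myh2 held 37 and 100, a share of 27.0% (19.8 to 35.3). The 190 led by Myh1 held 70 and 2023, a share of 3.34% (2.62 to 4.21), and the 503 led by Myh4 held 20 and 4927, a share of 0.404% (0.247 to 0.624). The intervals of Myh2, Myh1 and Myh4 did not overlap in either library, while those of Myh7 and Myh2 overlapped in ASC.

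**Figure D5:**
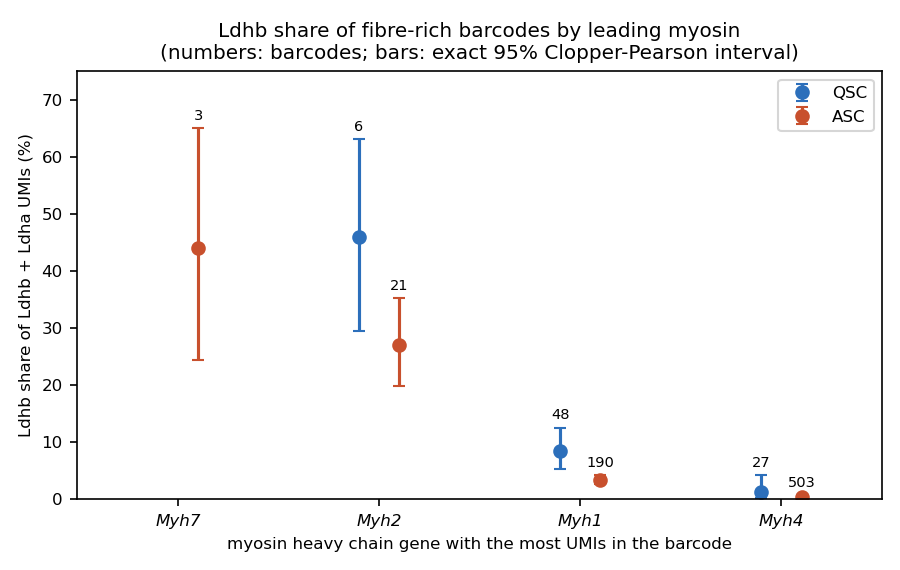
Ldhb share of the lactate dehydrogenase pair (percent) in fibre-rich QSC (blue) and ASC (red) barcodes grouped by their leading myosin heavy chain gene, with the number of barcodes and exact 95% Clopper-Pearson intervals that cover counting error only. In ASC the share goes from 44% under Myh7 to 0.404% under Myh4.

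Both subunits contributed. Ldhb was 910.2 CPM in QSC barcodes led by Myh2, 215 CPM under Myh1 and 33.3 CPM under Myh4, while Ldha was 1071, 2351 and 2811 CPM. In ASC Ldhb was 558, 508, 98.5 and 11.5 CPM from Myh7 to Myh4, and Ldha 709.7, 1373, 2847 and 2829.6 CPM. The parvalbumin gene Pvalb, a marker of the fastest fibres that was used in no rule, was 1231 CPM under Myh2, 5643 CPM under Myh1 and 16882 CPM under Myh4 in QSC. Without the barcode holding the most Ldhb in each group, the QSC shares were 35, 6.91 and 0.602% from Myh2 to Myh4, and the ASC ones 37.5, 24.2, 3.12 and 0.364%.

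The mix of leading myosins differed between the libraries. Myh4 led in 26.0% of fibre-rich QSC barcodes and 53.3% of those of ASC, Myh1 in 46.2 and 20.1%, and no myosin led in 22.1 and 24.0%. The lower Ldhb level of fibre-rich ASC barcodes therefore stood beside a larger part led by Myh4, and within Myh1 the ASC share was also below that of QSC. Within Myh4 the intervals of the libraries overlapped. Eno3 and Pgam2 shares were at least 96.2% under every leading myosin in both libraries, too near 100% to show an order. The Eno3 level itself was 3962 CPM (3111 to 4974) under Myh2, 5479 CPM (5025 to 5963) under Myh1 and 7534 CPM (6856 to 8261) under Myh4 in QSC. In ASC it was 2585, 3035, 4412 and 4565 CPM from Myh7 to Myh4, where the intervals of Myh7 and Myh2 and those of Myh1 and Myh4 overlapped. In the ASC Myh1 group 1 barcode held 605 of the 3135 Eno3 UMIs, and the level without it was not computed.

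Slow troponins gave the same order from few barcodes, in part the same ones. In 8 ASC fibre-rich barcodes at least 50% of troponin UMIs came from slow troponin genes, and 17 of their 47 lactate dehydrogenase UMIs were Ldhb, 36.2% (22.7 to 51.5) against 2.08% in the other barcodes so divided. Ldhb was met in 7 of the 8, which include the 3 barcodes led by Myh7 with 11 of these 17 Ldhb UMIs. Their Eno3 share was 95.7% and their Pgam2 share 96.2%. No QSC barcode met that rule, and a single QSC barcode of 10167 UMIs held 10 of the 43 Ldhb UMIs of its class, without which the Ldhb share of fibre-rich QSC barcodes was 6.06%.

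Likeness to other genes was taken over the 6 classes with at least 50 barcodes, as Pearson's r of log2(CPM + 1), with no test since the classes share libraries. Eno3 was most like Adipor1, Myoz1, Sh3bgr, Ckm and Tmem38a among 2549 genes, with r from 0.9991 to 0.9997. Ckm is the muscle creatine kinase and Myoz1 a protein of the Z-disc. Eno1 was most like Mydgf (0.997), Pgls (0.992), Tagln2 (0.992), Raly (0.991) and Lman2 (0.990), of which Pgls is an enzyme of the pentose phosphate pathway. Among the members, r was 0.995 between Eno3 and Pgam2, 0.988 between Eno3 and Pfkm, 0.961 between Eno1 and Pgam1 and -0.956 between Eno1 and Eno3, while Eno3 and Hk2 reached 0.446.

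Further isoenzymes were rare. Eno1b had 9 UMIs in QSC and 98 in ASC, the neuronal Eno2 0 and 3, the liver phosphofructokinase Pfkl 19 and 154, and Hk3 0 and 18, of which 15 were in immune barcodes. The testis form Ldhc was not met in either. Creatine kinase is an energy buffer with a muscle form (Ckm) and a brain form (Ckb). Its Ckm share was 98.3% in contractile-low QSC barcodes and 94.8% in those of ASC. In ASC immune barcodes it was 94.4%, so the share of contractile-low ASC barcodes cannot be told apart from that of immune ones. Whether satellite cells themselves make mainly Ckm was not tested.

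The other genes of the pathway, a list of 35, were counted in the same way. Between fibre-rich and contractile-low barcodes, 16 of 19 genes with enough UMIs were higher and 3 lower in QSC, where 18.8% of all genes were higher and 51.1% lower. In ASC 18 of 29 were higher and 6 lower, where 15.3% of all genes were higher and 45.4% lower. Those higher in ASC included muscle glycogen phosphorylase (Pygm, log2 difference 3.30), the glucose transporter Slc2a4 (12.1-fold), glycerol-3-phosphate dehydrogenase (Gpd1, 3.65) and fructose bisphosphatase of muscle (Fbp2, 4.31). The lower ones held the general glucose transporters Slc2a1 and Slc2a3, the lactate transporter Slc16a1, the liver phosphofructokinase Pfkl, the kinase Pdk3 and the hypoxia factor Hif1a.

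In contractile-low barcodes 3 of 26 pathway genes were higher in ASC and 7 lower, where 19.5% of all genes were higher and 22.7% lower, so these counts were near the background. Pgk1 (2.10) and Gapdh (1.87), which carry out steps just before phosphoglycerate mutase, were higher, and Pdk4 (-3.14), a kinase that slows pyruvate oxidation, was lower. In fibre-rich barcodes 5 of 25 were higher and 2 lower, where 27.0 and 9.30% of all genes were, and Pdk4 (-3.65) was among the lower ones. Over all kept barcodes 5 of 29 were higher and 3 lower, where 17.4 and 23.0% of all genes were, with Gapdh at 1.43, Pgk1 at 1.45 and Pdk4 at -3.04. How far Gapdh and Pgk1 went with depth as Eno1 did was not tested.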

How the data were processed

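The deposited files hold raw UMI counts per gene and barcode for 1 QSC and 1 ASC library, which the authors made with Cell Ranger 7.1.0 per the submitters' processing notes (the matrix header gives 6.0.2) from 10x 3′ v2 libraries aligned to mm10. The gene annotation is not given in the sources used here. The notes also name Seurat 4.1.0 and R 4.1.2. The study's methods keep cells with at least 500 genes and at most 1% mitochondrial UMIs.

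Barcodes with at least 500 genes and at most 10% mitochondrial UMIs were kept here, and counts were summed per library and class and divided by the summed UMIs. A 3′ tag is counted once per transcript, so levels were not scaled to length, and capture was not measured between genes. Aldoa, on 2 feature rows, was read from its first. With 1 library per group no test was run. Poisson, Clopper-Pearson and conditional binomial 95% intervals cover counting error only. Class thresholds were those given above. Members and lists, including the pathway list, were chosen with earlier results of these data known. The genes named were the 10 members, further isoenzymes of the same steps and of creatine kinase, the pathway list, and for Eno1 and Eno3 the 5 genes of highest Pearson's r over classes of at least 50 barcodes, among genes of at least 100 CPM in 1 class.

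Gene positions are from GENCODE and start regions from RefSeq tables, both on GRCm38. Alternatives were other limits on genes and mitochondrial UMIs, TMM scaling with edgeR 4.0.16 in R 4.3.3, equal weight per barcode, other class thresholds, other thinning and removal of the deepest barcodes. Scripts were tested on simulated data. Python 3.11.15, numpy 2.4.6, scipy 1.17.1, pandas 2.3.3, matplotlib 3.10.9 and Biopython 1.88 were used.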

Additional observations from a re-analysis of the deposited data

Results flagged for a closer look

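The barcodes that the filter removed were in no comparison, and they held enolase UMIs that were mostly Eno3. In QSC 250 of them held 15.8% contractile UMIs, and their Eno3 share of the pair was 99.1% (98.3 to 99.6), from 1094 Eno3 and 10 Eno1 UMIs. In ASC 182 of them held 7.84% contractile UMIs, and their Eno3 share was 88.0% (84.5 to 91.0), from 360 Eno3 and 49 Eno1 UMIs, which is below the 98.4% of the fibre-rich ASC barcodes. There were no control samples, and what these barcodes were was not tested.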

How the results depend on the processing

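No paired analysis was possible because each group had 1 library and the labels give no replicate numbers, and for the same reason no replicate could be left out. Of 378 values recomputed under alternatives, 261 stayed within the counting interval of the reported value, 109 moved outside it and 8 changed sign, and the cause was not tested except where the alternative itself removes barcodes. Library differences are log2 ASC over QSC. With at least 1000 genes they were Eno1 1.23, Eno3 0.75, Pgam2 0.92 and Ldha 1.18. Without barcodes above the 98th percentile of UMIs they were Eno1 1.21, Eno3 0.31 and Pgam2 0.57. TMM scaling shifted every difference by 0.31 upward (the ASC factor was -0.31 in log2 against QSC), which gave Eno1 1.77, Eno3 0.49, Pgam2 0.73, Ldha 1.21 and Pfkm 0.71. At most 5% mitochondrial UMIs gave Eno3 -0.18, Pgam2 0.10, Ldha 0.69 and Pfkm 0.078. At most 1%, which left 1 contractile-low and 85 fibre-rich QSC barcodes, gave Eno3 -0.80, Pgam1 1.38, Pgam2 -0.48, Ldha -0.061, Ldhb -1.41, Hk1 -0.15 and Pfkm -0.19. Among contractile-low barcodes of 2000 to 5000 UMIs, they were Eno1 -0.14, Eno3 0.028, Pgam1 0.82, Pgam2 0.36, Ldha 0.21, Pfkm 0.039 and Pfkp -0.090.

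Shares over a whole library at most 1% mitochondrial UMIs were Eno3 98.7%, Pgam2 99.3%, Ldhb 5.74%, Hk2 93.3% and Pfkm 100% in QSC, and Eno3 94.1%, Pgam2 97.4%, Hk2 96.6% and Pfkm 98.8% in ASC. At most 5%, Eno3 was 90.2% in QSC. With at least 1000 genes they were Eno3 76.5% and Pgam2 93.6% in QSC, and Eno3 70.1%, Pgam2 87.4%, Hk2 73.1% and Pfkm 91.3% in ASC. In contractile-low barcodes alone they were Eno3 65.6%, Pgam2 88.5%, Hk2 24% and Pfkm 71.8% in QSC, and Eno3 33.7%, Pgam2 63.9%, Hk2 58.3% and Pfkm 72.9% in ASC. In fibre-rich barcodes alone they were Eno3 99.4%, Pgam2 99.8%, Hk2 94.7% and Pfkm 100% in QSC, and Eno3 98.4%, Pgam2 98.9%, Hk2 98.3% and Pfkm 99.8% in ASC. Without the deepest barcodes ASC gave Eno3 78.4% and Pgam2 91.6%, and with equal weight per barcode Eno3 91.03%, Pgam2 96.2%, Ldhb 2.64%, Hk2 86.7% and Pfkm 97.1%.

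Within classes, at most 1% mitochondrial UMIs gave Eno3 27.3%, Pgam2 28.6% and Ldhb 12.5% in the 1 contractile-low QSC barcode, Eno3 35.8%, Pgam2 69.1%, Ldhb 3.29%, Hk2 77.8% and Pfkm 85% in contractile-low ASC ones, and Ldhb 4.49% and Hk2 94.4% in ASC immune ones. With fibre-rich from 3%, Eno3 was 32.1% and Pgam2 62.5% in contractile-low and Eno3 97.1%, Pgam2 98.5% and Hk2 95.6% in fibre-rich ASC barcodes. From 10%, Eno3 was 39.9%, Pgam2 67.7% and Pfkm 79.5%, and Eno3 98.7% in fibre-rich ones. Without the deepest barcodes contractile-low ASC ones gave Eno3 35.7% and Pgam2 68.1%. Equal weight per barcode gave them Eno3 43.7% and Pgam2 74.1%, immune ones Eno3 44.8% and fibre-rich ones Ldhb 2.65%. With members subtracted at the fibre-rich ratio to contractile UMIs, contractile-low QSC barcodes had Eno3 0%, Pgam2 50.5% and Pfkm 52.8%, those of ASC Eno3 0%, Pgam2 5.63%, Hk2 50.8% and Pfkm 0%, and ASC immune ones Eno3 0%, Pgam2 4.35% and Pfkm 0%, where 0% means that the subtraction took all UMIs. Barcodes with a UMI, thinned to 2000 UMIs, were Eno1 47.1% of QSC and 62.04% of ASC contractile-low ones, and Eno3 65.3 and 57.7%, with 68.1% of immune ones. Unthinned, Eno1 was 42.5, 81.0 and 93.1% and Eno3 67.8, 89.4 and 92.0% in the same order.

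The subtraction, the comparison at 2000 to 5000 UMIs, a minimum of 2000 UMIs, the removal of shared barcodes and of the barcode with the most Ldhb, the grouping by leading myosin, slow troponin from 20% and cycling from 0.2% were chosen after seeing the data. With a minimum of 2 myosin UMIs, the removals, the 2000 UMI minimum and the limits of 0.5 or 2% for immune barcodes, all values recomputed stayed within their intervals. Depth limits the fibre-rich QSC values of Pgam1, Hk1 and Pfkp, which rest on 2, 1 and 0 UMIs.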
